A study of Mus musculus with 24 samples.

Results

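The genes described here encode enzymes and core subunits that write, copy and remove DNA methylation, or that place the Polycomb repressive mark on histone H3, in mouse retinal organoids (MROs). They were chosen by symbol as 10 of the 46603 annotated genes counted: Dnmt1, Dnmt3a, Dnmt3b, Uhrf1, Tet1, Tet2, Tet3, Ezh2, Eed and Suz12. The choice used no measured value, and all 10 passed the filter on low counts, which asked that normalized counts average 10 or more over all organoids. The MROs were grown from E14Tg2a, a wildtype mouse embryonic stem cell line, and received water, the solvent control, in every group. By the study's methods, the cultures were also given serum and, before D20, a synthetic retinoid analog. Whole organoids were sampled at differentiation days (D) 20, 22, 25 and 30, with 6 individual MROs at each timepoint, and each gave 1 ribosomal RNA depleted, strand-specific RNA sequencing library. All 24 MROs came from 1 independent experiment with 1 cell line, so every p-value below measures the spread between organoids of that experiment. The timepoints span the end of retinal cell birth and the maturation that follows.

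DNA methyltransferases add a methyl group to cytosine, mostly at CpG. DNMT3A and DNMT3B set new methylation, DNMT1 copies it onto the daughter strand after replication with the help of UHRF1, which binds the hemimethylated site, and the TET enzymes oxidise the methyl group as a step towards its removal. Polycomb repressive complex 2 (PRC2) methylates lysine 27 of histone H3 and keeps developmental genes silent, with EZH2 or EZH1 as its enzyme and EED and SUZ12 as core subunits that the enzyme needs. In the retina EZH2 is known from progenitor cells, and TET and DNMT3 enzymes from the neurons that mature after the last division.

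Between 13634846 and 19477108 reads per MRO were counted on a gene or assembled locus, and levels are given as normalized CPM, the counted reads of a feature scaled to a common library size. The summed CPM of 22 replication and division genes had medians of 1670, 919.7, 855.8 and 585.3 over the successive timepoints. For 10 retinal progenitor markers these medians were 1417, 1078, 627.7 and 411.1, and for 12 photoreceptor markers 1830, 3278, 7947 and 11330. From D20 to D30, 5 of 6 Müller glia markers rose, and of 9 inner retinal neuron markers 5 rose and 2 fell. The summed level of 5 pigment epithelium markers was 9.86 to 39.4 CPM at D20 and 34.8 to 2666 CPM at D30. Of these, Ttr and Mitf rose (log2 change 6.88 and 1.34), Tyr was not called, and Rpe65 had at most 3 counts in any MRO. Of the other types, 2 of 3 tested oligodendrocyte markers rose and 1 fell, 1 of 3 endothelial markers rose and 2 fell, none of 4 cerebral cortex markers was called, and no microglia marker passed the filter. Of the pluripotency genes, Pou5f1 fell and Esrrb rose, and Nanog, Dppa5a and Tdgf1 had at most 3 counts in every MRO. The level of all 6 listed pluripotency genes summed was low, at 0.320 to 1.93 CPM at D20 and 7.42 to 14.1 CPM at D30. In whole organoids, fewer cells of a type and less RNA per cell cannot be told apart, and the part that these shifts in markers have in the results below was not tested.

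Since 4 of the 10 genes shared a sequence feature at a start site, those stretches are shown first. RefSeq promoter windows (GRCm38.p6, 250 bases before to 50 after a start) were listed for all 10 genes and searched on both strands for the letters TTTCCCGC, TTTCGCGC, TTTGCCGC or TTTGGCGC, which are forms of the site that E2F factors, regulators of the cell cycle, are known to bind. Each stretch below is 30 bases long and is written 5′ to 3′ on the strand of the gene, with the E2F letters or their reverse complement in capitals.
Dnmt1: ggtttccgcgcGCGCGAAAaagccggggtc
Uhrf1: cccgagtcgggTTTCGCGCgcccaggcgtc
Ezh2: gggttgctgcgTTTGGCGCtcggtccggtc
Suz12: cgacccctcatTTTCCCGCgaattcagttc

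The Dnmt1 stretch lies at chr9:20952824-20952853 on the minus strand, with its capitals 219 bases before the start of window 3 of 3, and within an exon of another annotated Dnmt1 transcript. The Uhrf1 stretch is at chr17:56304117-56304146 on the plus strand, 185 bases before the start of window 2 of 2 and outside annotated Uhrf1 exons. In Ezh2, at chr6:47595009-47595038 on the minus strand, the capitals begin at base 4 of the transcript, inside the first exon. In Suz12, at chr11:79992876-79992905 on the plus strand, they begin 219 bases before the start, outside its exons. Dnmt1 held a second match from base 34 of the transcript of window 3. Such letters were present for 4 of 10 of these genes (40.0%) and for 2.60% of the 27025 genes in the promoter table, or 4.68% of the 10909 genes of that table that were also tested here. A gene with several windows has more chances of a match, and Dnmt1 and Uhrf1 had 3 and 2. CCAAT was found for 6 of the 10 genes (60.0%) against 41.06% of all genes, and TTTGAA, the core letters of the cell cycle homology region, for 4 (40.0%) against 20.23%. CpG pairs, the substrate of DNA methylation, numbered from 17 in the windows of Tet1 and Eed to 57 in the window of Tet2 among the genes with 1 window, against a median of 7 and an upper quartile of 20 over all windows. These matches are a description of letters, and no binding or methylation was measured in these samples.

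Across the 10 days from D20 to D30, Ezh2, Dnmt3b, Uhrf1 and Suz12 fell, Dnmt3a and Tet3 rose, and the other 4 genes did not pass the test. Ezh2 was called lower in both intervals after D22, and Uhrf1 in the interval before. The test was edgeR's quasi-likelihood test over 46949 features with Benjamini-Hochberg adjustment and a threshold of 0.01. Higher calls were made for 2 of the 10 genes from D20 to D30, against 13.9% of all features tested, and lower calls for 4 of 10, against 13.0%. Over any of the timepoints jointly, 7 of 10 genes differed, against 27.2% of all features. Most features are assembled loci, and among the 16253 annotated genes tested the shares were larger, at 25.1% higher and 16.7% lower from D20 to D30 and 43.9% jointly, so that 2 of 10 higher is below the share of annotated genes. The median log2 fold change of the 10 genes from D20 to D30 was -0.27, beside 0.10 for all annotated genes tested.

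**Figure D1:**
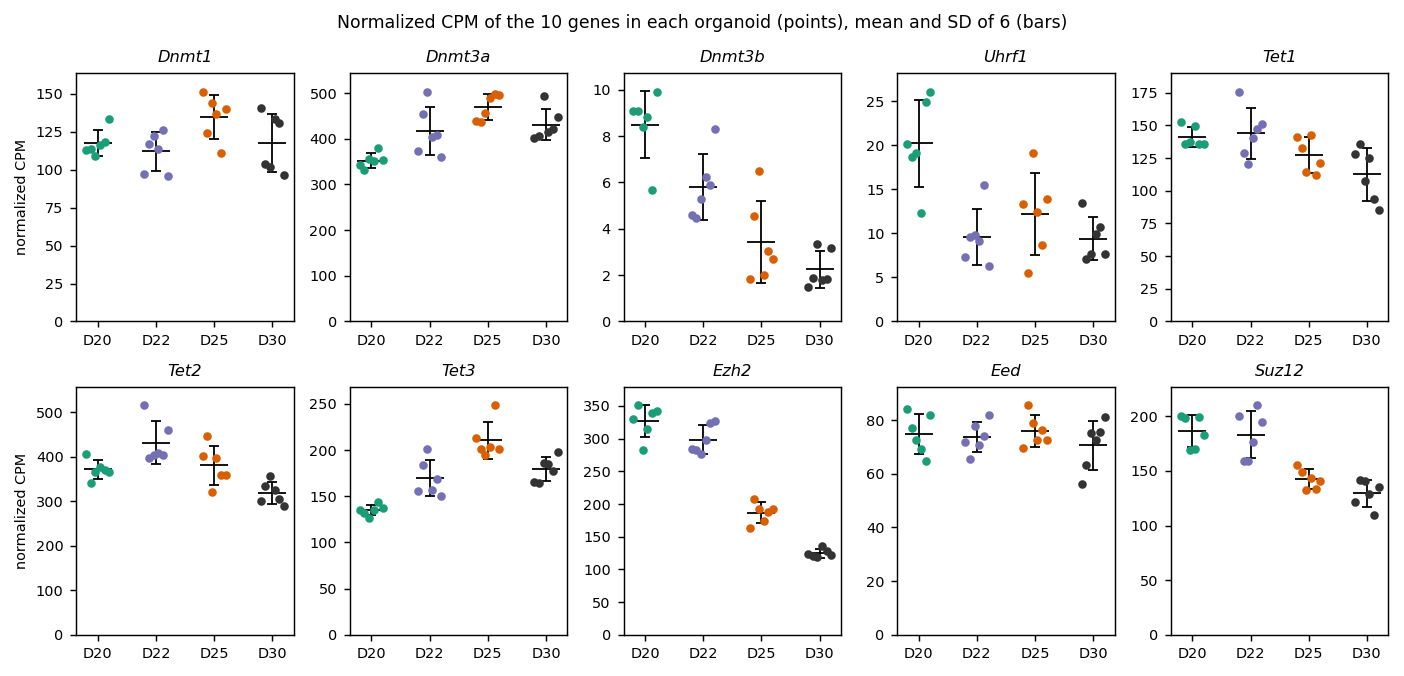
Normalized CPM (vertical axis, linear from 0) of each of the 10 genes by timepoint (horizontal axis); each point is 1 organoid, and the bars give the mean and SD of 6. Ezh2 steps down from D22 to D25 and again to D30 with no overlap, Dnmt3b and Uhrf1 are the lowest of the 10 on this scale, and Dnmt1 and Eed overlap between all timepoints.

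By single interval, few of the genes were called. From D20 to D22, none was higher (1.62% of all features were) and 1, Uhrf1, was lower (0.285% of all features). Between D22 and D25, none was higher (3.08% of all features) and 2, Ezh2 and Suz12, were lower (2.19%). Between D25 and D30, none was higher (1.76%) and only Ezh2 was lower (1.75%). Among the annotated genes tested the shares were again larger, at 2.6%, 7.3% and 4.5% higher and 0.8%, 2.9% and 2.8% lower in the successive intervals. At an unadjusted p under 0.05, 5, 7 and 4 of the 10 genes passed in these 3 intervals. The share of all features passing at that threshold was not computed, so these counts cannot be read as particular to the 10 genes.

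Ezh2 (ENSMUSG00000029687, chromosome 6, 47530139 to 47595341, minus strand, GRCm38), the catalytic subunit of PRC2, had the clearest course of the 10. At D20 its lowest, median and highest levels were 283.0, 334.9 and 351.6 CPM, and at D22 they were 276.3, 290.8 and 326.5 CPM. At D25 they were 163.2, 190.4 and 208.1 CPM, and at D30 118.3, 122.4 and 135.2 CPM. The D20 and D22 groups overlapped, every D25 organoid was below every D22 organoid, and every D30 organoid was below every D25 organoid. From D22 to D25 Ezh2 fell by 0.68 on the log2 scale (SE 0.075, adjusted p = 7.86e-07, edgeR), and from D25 to D30 it fell by 0.59 (SE 0.075, adjusted p = 3.49e-06). Over D20 to D30 it was 2.63-fold lower, a log2 change of -1.39 (SE 0.076, adjusted p = 7.30e-15). The change from D20 to D22 was -0.13 (adjusted p = 0.372).

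Suz12 (ENSMUSG00000017548, chromosome 11, 79993106 to 80034123, plus strand), which holds PRC2 together, fell less. The lowest, median and highest levels of Suz12 were 169.1, 190.8 and 199.9 CPM at D20 and 158.7, 185.7 and 210.4 CPM at D22. They were 132.7, 142.3 and 155.8 CPM at D25, and 109.4, 131.9 and 141.7 CPM at D30. The D20 and D22 organoids were mixed, all D25 organoids lay below all D22 organoids, and D25 and D30 overlapped. Suz12 was 1.44-fold lower at D30 than at D20 (log2 change -0.53, SE 0.086, adjusted p = 1.16e-05, edgeR). The D22 to D25 fall of 0.36 on the log2 scale (adjusted p = 0.00524) lost its call without D22 replicate 1, 5 or 6 or D25 replicate 3, 4, 5 or 6, each left out alone, with adjusted p between 0.0109 and 0.0194. It was also lost in edgeR with DESeq2 size factors (adjusted p = 0.01004), with filterByExpr (0.0128) and with no filter (0.0336).

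Eed (ENSMUSG00000030619, chromosome 7, 89954654 to 89980983, minus strand), the subunit that reads the H3K27 methyl mark, gave no call. Its lowest, median and highest levels were 64.8, 74.8 and 84.1 CPM at D20, and 56.3, 73.9 and 81.0 CPM at D30. At D22 the levels ran from 65.6 to 82.0 CPM, and at D25 from 69.5 to 85.6 CPM. The organoids of all 4 timepoints overlapped, with a D20 to D30 log2 change of -0.08 and a 95% interval from -0.28 to 0.11 (adjusted p = 0.517, edgeR). Of the exon bases of Eed, 6.82% are shared with E230029C05Rik on the opposite strand, which had 43 to 180 counts per MRO. Whether the counting used strand is not given in the sources used here, so reads there cannot be told apart. The other 9 genes share at most 3.6% of their exon bases with a gene on the opposite strand.

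Because a count ratio within 1 library does not depend on the scaling between libraries, pairs of genes were also compared as log2 ratios, in 40 exact permutation tests (two-sided, Benjamini-Hochberg adjusted over the 40, threshold 0.05). Of these, 24 passed, and how many ratios of other gene pairs would pass was not tested. With 6 organoids against 6, the smallest p an exact test can give is 0.00216, adjusted to 0.00618. Such a ratio shows unequal change of the 2 genes, not which of them changed.

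Per kilobase of exon, the Ezh2 to Eed ratio had a median of 2.51 at D20 (2.24 to 3.01) and of 1.02 at D30 (0.860 to 1.26). Its mean log2 count ratio was lower by -1.30 at D30 than at D20 (SE 0.105, exact p = 0.00216, adjusted p = 0.00618), with no overlap. Against Suz12, the median Ezh2 ratio per kilobase went from 1.29 (1.22 to 1.39) to 0.709 (0.622 to 0.866). That is a log2 difference of -0.86 (SE 0.084, exact p = 0.00216, adjusted p = 0.00618), and again the D20 and D30 organoids did not overlap. The 3 core PRC2 transcripts therefore changed unequally, with Ezh2 moving downwards relative to both of its partners.

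Ezh1, the alternative PRC2 enzyme that is known from cells that no longer divide, had 31.5 to 42.8 CPM at D20 and 35.1 to 43.5 CPM at D30. Its D20 to D30 log2 change was 0.19, with a 95% interval from -0.02 to 0.41 (adjusted p = 0.149, edgeR), and its groups overlapped. The Ezh2 to Ezh1 ratio per kilobase had a median of 10.7 at D20 (8.80 to 11.97), passed 8.14 at D22 and 5.67 at D25, and reached 3.41 at D30 (3.27 to 3.85). This ratio was lower in each interval, with log2 differences of -0.34 in the first (adjusted p = 0.0236, exact permutation test), -0.50 in the second and -0.75 in the last (adjusted p = 0.00618 for both). Ezh2 transcripts still outnumbered those of Ezh1 in every D30 organoid.

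**Figure D2:**
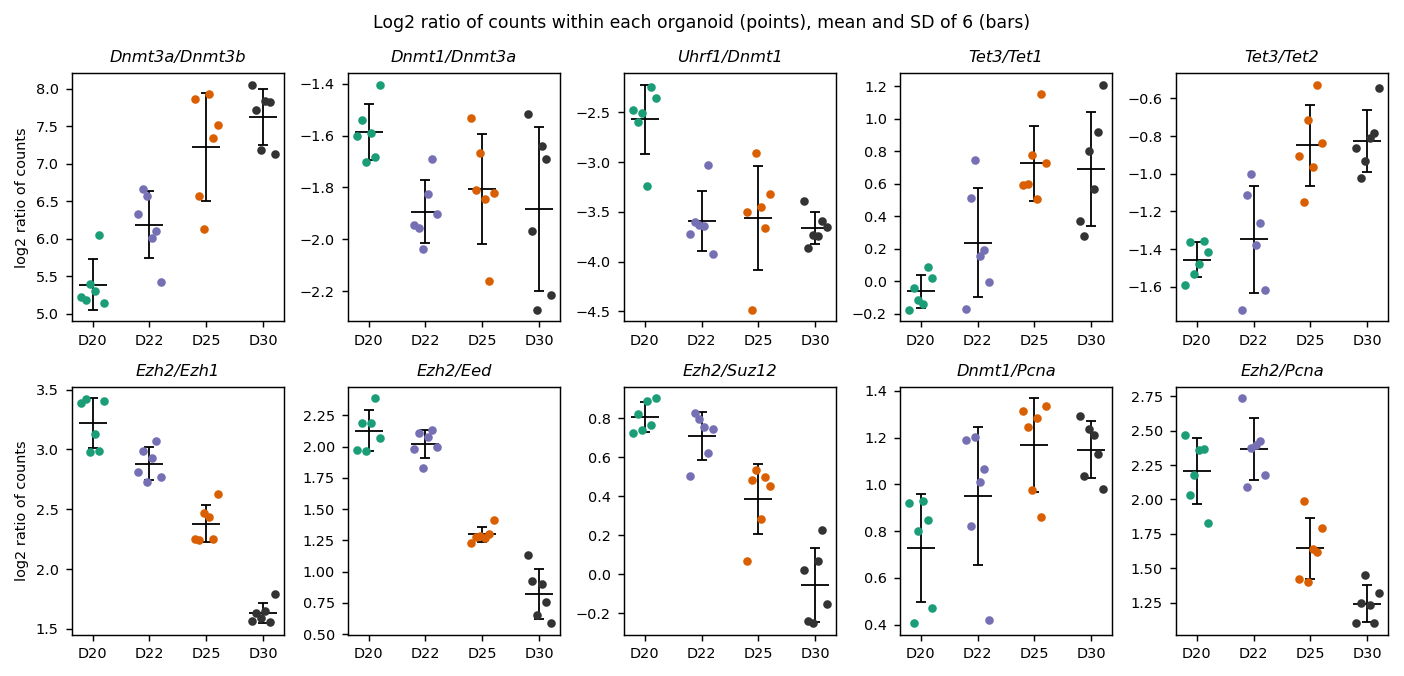
Log2 ratio of counts of 10 gene pairs within each organoid (vertical axis) by timepoint (horizontal axis); points are organoids and bars the mean and SD of 6. The Ezh2 to Ezh1 ratio steps down from a mean of 3.22 at D20 to 1.63 at D30, while the Dnmt3a to Dnmt3b ratio climbs from 5.39 to 7.63.

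Among the methyltransferases, Dnmt3b (ENSMUSG00000027478, chromosome 2, 153649450 to 153687730, plus strand), the enzyme of new methylation in the early embryo, fell furthest of the 10 genes from D20 to D30. Its counts were low, from 26 to 155 per MRO. The lowest, median and highest levels were 5.69, 8.95 and 9.92 CPM at D20 and 4.47, 5.58 and 8.32 CPM at D22. They were 1.85, 2.86 and 6.48 CPM at D25 and 1.48, 1.86 and 3.36 CPM at D30. Neighbouring timepoints overlapped, but every D30 organoid was below every D20 organoid. Dnmt3b was 3.76-fold lower at D30 than at D20 (log2 change -1.91, SE 0.278, adjusted p = 1.92e-06, edgeR), whereas no single interval passed the test (log2 changes -0.55, -0.76 and -0.60, adjusted p = 0.265, 0.0657 and 0.245). Without D25 replicate 3, which had the highest Dnmt3b level of its timepoint, the D22 to D25 change was -1.05 (adjusted p = 0.00946).

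Dnmt3a (ENSMUSG00000020661, chromosome 12, 3806007 to 3914443, plus strand), the methyltransferase known for new methylation in neurons, was higher at D30 than at D20. Levels at the low end, median and high end were 331.2, 352.2 and 379.8 CPM at D20 and 360.1, 406.1 and 503.2 CPM at D22. They reached 436.0, 473.3 and 497.6 CPM at D25 and were 402.6, 418.5 and 493.3 CPM at D30. Every D25 and D30 organoid was above every D20 organoid, while D22, D25 and D30 overlapped. The D20 to D30 log2 change was 0.29 (SE 0.078, adjusted p = 0.00343, edgeR). This call depended on the setting, since it was lost without D30 replicate 3 (adjusted p = 0.0132) and when only annotated genes were scaled, tested and adjusted over (log2 change 0.21, adjusted p = 0.0375).

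Dnmt3a and Dnmt3b went in opposite directions, and their ratio did not depend on scaling. The count ratio of Dnmt3a to Dnmt3b started at a median of 38.7 (D20, 35.6 to 66.7) and went through 75.3 (D22) and 174.4 (D25) to 222.3 (D30, 141.5 to 271.2). The mean log2 ratio was 2.24 higher at D30 than at D20 (SE 0.207, exact p = 0.00216, adjusted p = 0.00618). It was higher by 0.80 from D20 to D22 and by 1.04 from D22 to D25 (adjusted p = 0.0165 and 0.0339), with overlapping organoids, and by 0.40 from D25 to D30 (adjusted p = 0.341).

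Dnmt1 (ENSMUSG00000004099, chromosome 9, 20907209 to 20959888, minus strand), the maintenance methyltransferase, gave no call in any comparison. Its lowest, median and highest levels were 109.2, 115.2 and 133.5 CPM at D20, 111.2, 138.4 and 151.5 CPM at D25, and 96.3, 117.2 and 140.7 CPM at D30. At D22 it lay between 96.2 and 126.5 CPM, and all timepoints overlapped. From D20 to D30 the log2 change was 0.00 with a 95% interval from -0.21 to 0.22 (adjusted p = 0.979, edgeR). The replication clamp Pcna, to which DNMT1 binds at the fork, was 1.36-fold lower (log2 change -0.45, adjusted p = 0.00659). The Dnmt1 to Pcna log2 ratio was 0.42 higher at D30 (SE 0.107, exact p = 0.00216, adjusted p = 0.00618), with no overlap of D20 and D30. Median count ratios of 1.77, 2.05, 2.40 and 2.26 were found in the 4 timepoints in turn.

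Uhrf1 (ENSMUSG00000001228, chromosome 17, 56303321 to 56323486, plus strand), which brings DNMT1 to newly replicated DNA, fell within the first 2 days. Its lowest, median and highest levels were 12.3, 19.7 and 26.1 CPM at D20 and 6.32, 9.36 and 15.5 CPM at D22. They were 5.51, 12.9 and 19.1 CPM at D25 and 7.10, 8.78 and 13.4 CPM at D30. D20 organoids were mostly above the others, but the lowest D20 organoid lay within the range of each later timepoint. From D20 to D22 the log2 change was -1.08 (SE 0.240, adjusted p = 0.00651, edgeR), and from D20 to D30 it was -1.10 (SE 0.239, adjusted p = 0.000441), a 2.15-fold lower level. The D20 to D22 call was lost without D20 replicate 1, 2, 3, 5 or 6 or D22 replicate 1, 2, 3, 4 or 6, each left out alone, with adjusted p between 0.0110 and 0.0182 and a log2 change between -1.10 and -0.98.

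The Uhrf1 to Dnmt1 count ratio had a median of 0.177 at D20 (0.106 to 0.210) and 0.0772 at D30 (0.0684 to 0.0954). Its log2 difference was -1.02 from D20 to D22 (adjusted p = 0.0102) and -1.09 from D20 to D30 (SE 0.157, exact p = 0.00216, adjusted p = 0.00618), without overlap in the latter. So the cofactor and its enzyme, which work as a pair, changed unequally. Uhrf2, the relative of Uhrf1 that is not known to replace it in maintenance, had 123.4 to 134.8 CPM at D20 and 71.3 to 87.4 CPM at D30. It fell by 0.71 on the log2 scale over the interval (SE 0.089, adjusted p = 1.55e-07, edgeR), with its called step between D22 and D25 (log2 change -0.46, adjusted p = 0.000853).

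**Figure D3:**
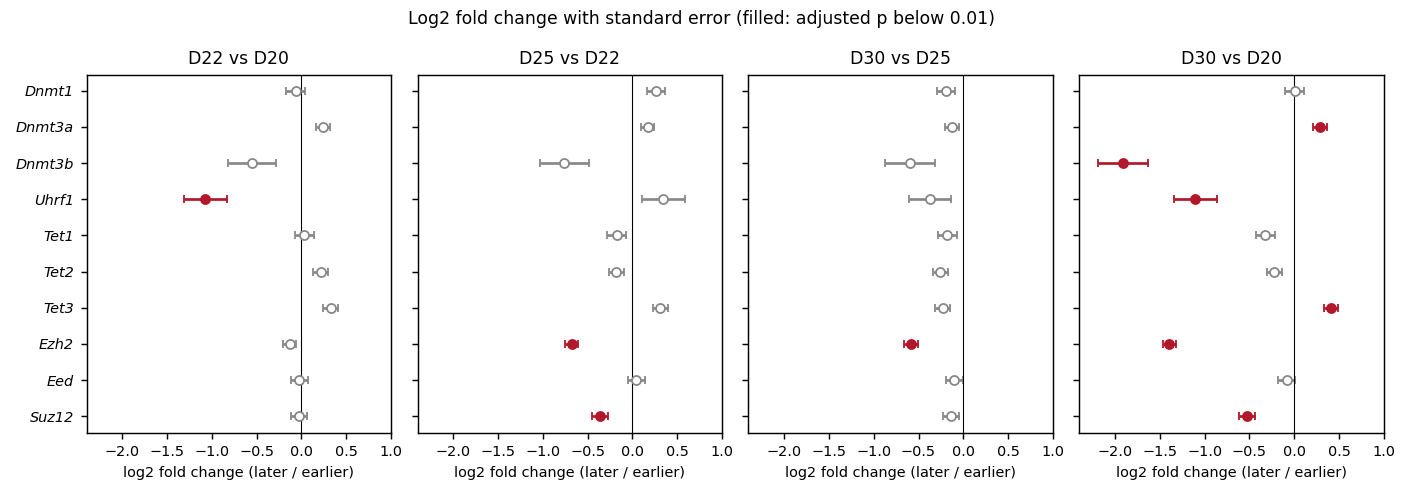
Log2 fold change (horizontal axis, later over earlier timepoint) of the 10 genes in 4 comparisons with the standard error as bars; filled red points have an adjusted p below 0.01. Ezh2 is filled in both intervals after D22, Uhrf1 in the interval from D20 to D22, and 6 genes are filled from D20 to D30, with Dnmt3a and Tet3 to the right of 0.

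The TET enzymes diverged. Tet3 (ENSMUSG00000034832, chromosome 6, 83362373 to 83459084, minus strand) rose. From lowest through median to highest, levels were 126.6, 135.2 and 143.9 CPM at D20 and 150.4, 162.5 and 201.4 CPM at D22. They were 195.2, 202.4 and 249.0 CPM at D25 and 164.5, 181.1 and 197.9 CPM at D30. Every organoid of each later timepoint was above every D20 organoid, and the highest median was that of D25. The D20 to D30 log2 change was 0.41 (SE 0.081, adjusted p = 0.000159, edgeR). The intervals D20 to D22 and D22 to D25 had log2 changes of 0.33 and 0.31 and did not pass (adjusted p = 0.0150 and 0.0104), nor did the change of -0.23 from D25 to D30 (adjusted p = 0.0896).

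Tet1 (ENSMUSG00000047146, chromosome 10, 62804570 to 62908996, minus strand), the TET enzyme best known from stem cells, was spread widely at D30. Its lowest, median and highest levels were 135.5, 136.6 and 152.7 CPM at D20 and 85.5, 116.2 and 135.4 CPM at D30. All D30 organoids lay below all D20 organoids, though by a narrow margin, and D22 (120.1 to 175.9 CPM) and D25 (112.0 to 143.0 CPM) overlapped with both. The log2 change of -0.33 (SE 0.106, adjusted p = 0.0150, edgeR) missed the threshold; it passed with only annotated genes scaled, tested and adjusted over (log2 change -0.42, adjusted p = 0.00146) and without D30 replicate 2 (-0.38, adjusted p = 0.00602).

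Tet2 (ENSMUSG00000040943, chromosome 3, 133463679 to 133545139, minus strand) had lowest, median and highest levels of 340.4, 368.0 and 406.9 CPM at D20, and 397.4, 406.0 and 516.1 CPM at D22. At D25 they were 320.2, 378.0 and 446.6 CPM and at D30 288.2, 314.4 and 355.7 CPM. Its highest median was at D22 and its lowest at D30, and neighbouring timepoints overlapped. Tet2 differed over the timepoints jointly (adjusted p = 0.000802, edgeR), but in none of the 4 pairwise comparisons (log2 changes 0.22, -0.18, -0.26 and, for D20 to D30, -0.22, adjusted p = 0.136, 0.164, 0.0548 and 0.0330). With annotated genes alone scaled and tested, the D20 to D30 change of -0.31 passed (adjusted p = 0.00605).

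Within libraries, the balance between the TET genes moved towards Tet3. Per kilobase, the Tet3 to Tet1 ratio had a median of 0.878 at D20 (0.819 to 0.983) and 1.49 at D30 (1.13 to 2.14), a log2 difference of 0.75 (SE 0.150, exact p = 0.00216, adjusted p = 0.00618). The Tet3 to Tet2 ratio had a median of 0.371 at D20 (0.335 to 0.394) and 0.567 at D30 (0.497 to 0.694), a log2 difference of 0.63 (SE 0.077, exact p = 0.00216, adjusted p = 0.00618). In both ratios D20 and D30 did not overlap, and the step from D22 to D25 passed (adjusted p = 0.0361 and 0.0165).

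The order of the 10 levels, compared as CPM per kilobase of exon, changed at its upper end. The length used joins all annotated exons of a gene, so a gene that uses only part of them is placed too low. At D20 Ezh2 (median 50.2, 42.4 to 52.6) was above Suz12 (38.6, 34.2 to 40.4) with no overlap, and both were above all others. Tet2 (21.8), Dnmt3a (21.2) and Eed (19.5) followed with overlapping organoids, then Dnmt1 (15.6), which overlapped with Eed. Tet1 (8.84) and Tet3 (8.10) came next without overlap between them, then Uhrf1 (4.63), and Dnmt3b (1.75) was last. At D30 the order was led by Suz12 (26.7, 22.1 to 28.7) and Dnmt3a (25.2, 24.2 to 29.6), which overlapped. Eed (19.3), Tet2 (18.6), Ezh2 (18.3) and Dnmt1 (15.9) overlapped in a middle group. Tet3 (10.9) was above Tet1 (7.52) without overlap, and Uhrf1 (2.06) and Dnmt3b (0.365) were again lowest.

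Organoids of the same age also differed from each other, and some of the genes did so together. After the timepoint mean was subtracted from log2 CPM, 4 of the 45 gene pairs were correlated over the 24 organoids (100000 permutations within timepoints, Benjamini-Hochberg adjusted over the 45 pairs, threshold 0.05). Dnmt1 and Uhrf1, partners in maintenance methylation, had Pearson's r = 0.73 (adjusted permutation p = 0.00135) and Spearman's rho = 0.81 (adjusted permutation p = 0.00135), and r was 0.73 without the 2 organoids farthest from the median of Dnmt1. Dnmt3a and Tet3 had r = 0.75 (adjusted permutation p = 0.00375) and rho = 0.69 (0.0174), and r = 0.68 without the 2 farthest organoids. Dnmt3b and Eed had r = 0.68 (adjusted permutation p = 0.00315) and rho = 0.72 (0.00450), with r = 0.74 without 2. For Tet1 and Tet2, r was 0.64 (adjusted permutation p = 0.0223) and rho 0.64 (0.0260), with r = 0.53 without 2. The most negative r, -0.59, was shared by Dnmt3a with Tet1 and by Tet1 with Tet3 (adjusted permutation p = 0.0607 for both). Their rho was -0.65 (adjusted permutation p = 0.0252) and -0.57 (0.102), so that only the rank correlation of the first pair passed. Ezh2 was in none of these pairs. How often pairs of other genes were correlated in this way was not tested, so the count of 4 does not single out these genes.

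**Figure D4:**
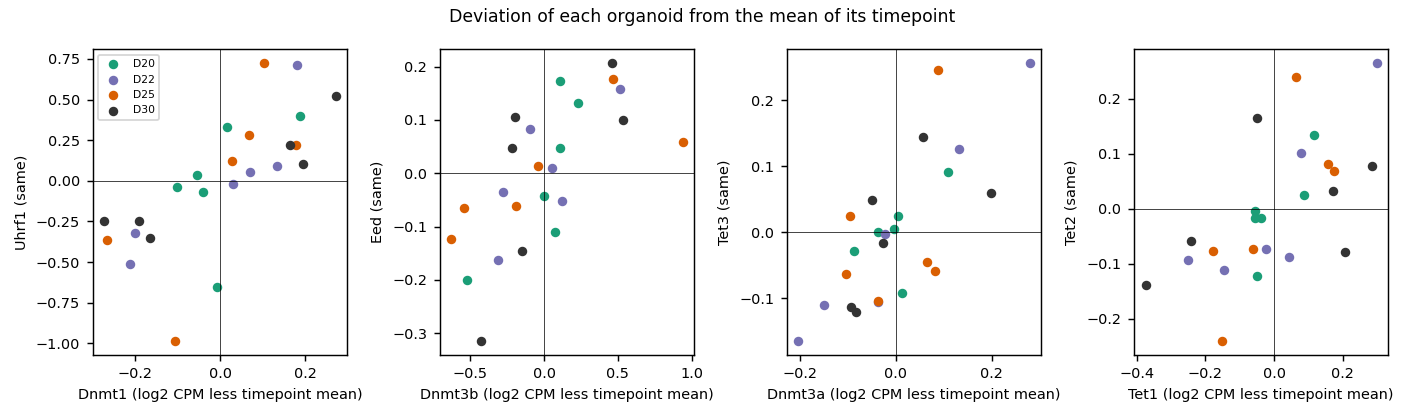
Deviation of log2 CPM from the timepoint mean for the 4 correlated gene pairs (horizontal axis, first gene; vertical axis, second gene); each point is 1 organoid, coloured by timepoint. Points run from lower left to upper right in each panel, with r between 0.64 and 0.75.

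The organoid with the highest Uhrf1 level at each timepoint was also the one with the highest summed level of the 22 replication and division genes, a comparison made after the values were seen. At D20 this was replicate 6 (26.1 CPM of Uhrf1, summed level 1885 CPM), at D22 replicate 5 (15.5 and 1356 CPM), at D25 replicate 3 (19.1 and 1372 CPM) and at D30 replicate 1 (13.4 and 823.5 CPM). The lowest Uhrf1 level came with the lowest summed level at D20 (replicate 4, 12.3 and 1208 CPM) and D25 (replicate 2, 5.51 and 410.5 CPM), but not at D22 or D30. At D22 replicate 6 had the lowest Uhrf1 level and replicate 1 the lowest sum (716.2 CPM), and at D30 these were replicates 2 and 3 (506.4 CPM). Dnmt1 too was highest in replicate 6 at D20 (133.5 CPM), replicate 5 at D22 (126.5 CPM) and replicate 1 at D30 (140.7 CPM), but at D25 it was highest in replicate 1 (151.5 CPM) and not in replicate 3 (143.8 CPM).

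As a description over all 24 organoids, in which the shared course over time enters, the genes most like each of the 10 in log2 CPM were sought among 10830 annotated genes whose normalized counts averaged 100 or more. Ezh2 was most like Mybl1 (r = 0.987) and Dusp16 (r = 0.982). Uhrf1 was most like Kif2c (r = 0.936) and Kif22 (r = 0.929), which encode kinesin motors of the mitotic spindle. Dnmt3b was most like Crabp2 (r = 0.925), a retinoic acid binding protein, and Hyi (r = 0.922). Dnmt3a was nearest to Ncoa2 (r = 0.934), a nuclear receptor coactivator, and Cerk (r = 0.933), and Tet3 to 4931406P16Rik (r = 0.942) and Pias3 (r = 0.936). For Suz12 they were Gm43300 (r = 0.931) and Plag1 (r = 0.928), for Tet1 Rnf217 (r = 0.927) and Cep170 (r = 0.918), and for Tet2 Foxo3 (r = 0.905) and Jmjd6 (r = 0.871). Dnmt1 (Limch1, r = 0.790, and Nf2, r = 0.785) and Eed (2510002D24Rik, r = 0.755, and Rps6kb2, r = 0.726) had no gene as close.

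Around these 10 genes, the other listed genes of the same systems were compared between D20 and D30 in the same fit, to be read beside the 13.9% of all features called higher and 13.0% called lower, or 25.1% and 16.7% of annotated genes, and the annotated median of 0.10. Of the 15 DNA methylation partners (readers, recruiters and cofactors), 13 were tested, of which 3 rose and 4 fell, with a median log2 change of -0.08. The methyl-CpG binding factors Zbtb4 (51.7 ± 4.44 CPM at D20 and 101.9 ± 10.96 CPM at D30, SD, n = 6; log2 change 0.98) and Zbtb38 (0.41) were among the genes that rose. Hells, a chromatin remodeller needed for methylation, fell by 0.84 on the log2 scale (adjusted p = 0.00149, edgeR), and Uhrf2, Mbd3 and Trim28 also fell. Dnmt3l, the cofactor of DNMT3 enzymes in germ cells, had 0 counts in every library, which allows at most 3 counts, or 0.22 CPM in the shallowest, for counting error only. Dppa3, which keeps UHRF1 off chromatin in the egg, had at most 3 counts.

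All 16 genes of demethylation and base excision repair were tested, of which 2 rose and 7 fell (median log2 change -0.36), with 2 of 16 near or below the shares called higher given above. Smug1, a uracil DNA glycosylase, had 17.9 ± 3.94 CPM at D20 and 49.0 ± 7.28 CPM at D30 (SD, n = 6; log2 change 1.45, adjusted p = 1.36e-09, edgeR). Cxxc4, a CpG binding protein that acts on TET2, rose by 1.39 on the log2 scale (adjusted p = 7.13e-08). The mitochondrial Idh2, which makes the 2-oxoglutarate that TET enzymes use, fell by 1.23 (adjusted p = 1.92e-08), and Parp1, a sensor of DNA breaks, fell by 0.89 (adjusted p = 1.25e-08). Apex1, Cxxc5, Gadd45g, Lig3 and Ogt were the other genes that fell.

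Of the 9 other PRC2 genes tested, none rose and 3 fell from D20 to D30 (median -0.11). Within that span, Jarid2 rose from D20 to D22 (log2 change 0.56, adjusted p = 0.00017, edgeR) and fell from D25 to D30 (-0.69, adjusted p = 2.95e-06). The D20 to D30 change of Jarid2, 0.19, was not called (adjusted p = 0.0941, edgeR). Epop, which links PRC2 to elongin, fell by 1.82 on the log2 scale (4.72 ± 1.74 to 1.34 ± 0.532 CPM, SD, n = 6; adjusted p = 6.26e-05, edgeR). Mtf2, a Polycomb-like protein that guides PRC2 to CpG islands, fell by 0.84 (224.3 ± 18.5 to 125.0 ± 10.1 CPM; adjusted p = 1.12e-09), and Aebp2 by 0.33 (adjusted p = 0.00338).

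For PRC1, the Polycomb complex that ubiquitinates histone H2A and reads the PRC2 mark, 3 of 20 subunit genes rose and 3 fell (median -0.08), which is near the shares of all features called, so the counts single out nothing about PRC1. Cbx6 (32.2 ± 2.30 to 57.4 ± 8.15 CPM; log2 change 0.83, adjusted p = 2.65e-07, edgeR), Bmi1 (73.0 ± 9.35 to 109.4 ± 13.2 CPM; 0.58, adjusted p = 1.03e-05) and Yaf2 rose. Cbx2 (13.5 ± 3.04 to 3.78 ± 0.782 CPM; log2 change -1.84, adjusted p = 4.20e-09), Pcgf2 (14.3 ± 2.98 to 7.45 ± 1.52 CPM; -0.94, adjusted p = 6.48e-05) and Pcgf3 fell. Cbx2 and Cbx6 encode alternative readers of the mark, and Bmi1 and Pcgf2 alternative partners of the same ring finger enzyme, so that within both pairs 1 gene rose and the other fell.

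Of 6 genes that remove the Polycomb marks, 3 fell with small changes, namely Kdm6a (-0.39, adjusted p = 0.000930, edgeR), Kdm6b (-0.37, adjusted p = 0.00867) and Asxl1 (-0.35, adjusted p = 0.00935). Their D20 and D30 organoids overlapped, and the count was 1 of 6 with no filter, with filterByExpr or with D20 and D30 alone in the fit. Of the 22 replication and division genes 16 fell and none rose (median -1.17).

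Relative to Pcna, Ezh2 was not called different from D20 to D22 and was lower afterwards. Pcna is 1 of the 22 replication and division genes. From D20 to D30 it changed by -0.45 on the log2 scale, beside a list median of -1.17 and -1.39 for Ezh2. Ratios of Ezh2 to the other genes of that list were not tested. The median Ezh2 to Pcna count ratio was 4.83 at D20 (3.56 to 5.53) and 5.23 at D22, against 3.10 at D25 and 2.37 at D30 (2.14 to 2.74). The log2 difference from D20 to D22 was 0.16 (SE 0.135, exact p = 0.251, adjusted p = 0.324), and from D22 to D25 it was -0.72 (SE 0.130, exact p = 0.00216, adjusted p = 0.00618) with no overlap. Over the same first 2 days the replication and division list had a median log2 change of -0.78, with 3 of 22 genes called lower, beside -0.13 for Ezh2 and -1.08 for Uhrf1.

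**Figure D5:**
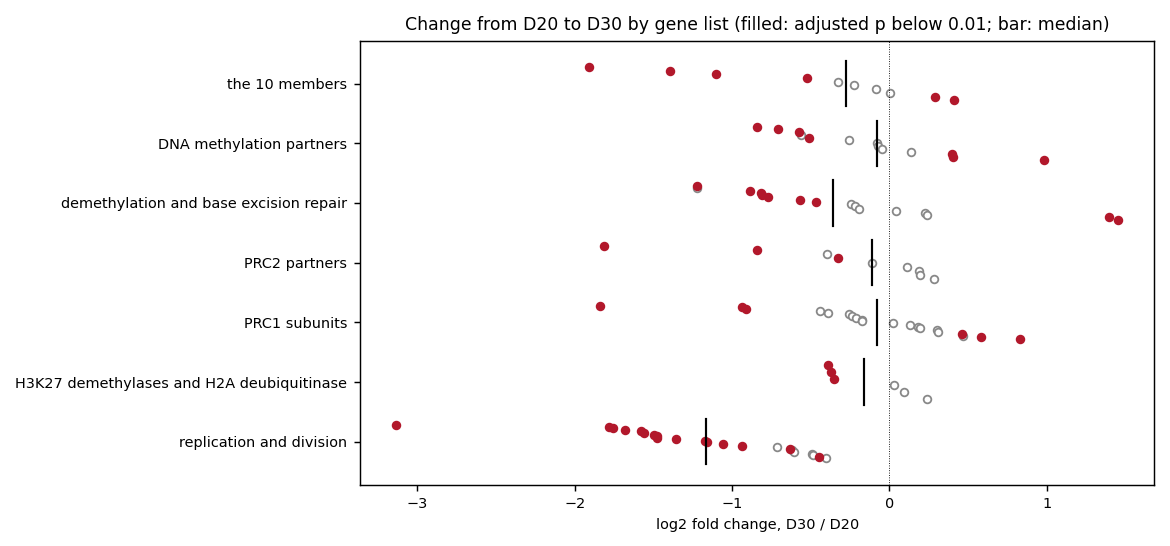
Log2 fold change from D20 to D30 (horizontal axis) of the tested genes of 7 lists (rows); each point is 1 gene, filled red where adjusted p is below 0.01, and the black bar is the median of the list. The upper 6 rows hold genes on both sides of 0, and every replication and division gene lies below 0.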

How the data were processed

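The authors trimmed the reads (cutadapt 1.5), aligned them with HISAT2 to GRCm38/mm10, assembled further transcripts (StringTie 1.3.3) and counted reads per gene or transcript with HTSeq 0.6.1, per the study's methods and processing notes. The deposited values are these whole-number counts for 126602 features, without normalization; whether counting used strand is not given in the sources used here. Summary lines stayed out of the library sizes: reads on no feature were 35.03% to 45.59% of all reads listed. Coordinates and exon lengths, the latter over all annotated exons of a gene together, are from GENCODE vM21, and promoter windows are from RefSeq.

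Samples were grouped by the timepoint in the labels. From the counts, edgeR 4.0.16 (R 4.3.3; TMM scaling, 1 quasi-likelihood fit of all 24 libraries, no covariate) tested 46949 features with a mean of at least 10 counts normalized by DESeq2 1.42.0 size factors, with Benjamini-Hochberg adjustment over all of them and a threshold of 0.01; the study used DESeq2, an alternative here. Intervals use the t distribution with 20 residual degrees of freedom. Exact and resampled permutation tests used Python 3.11.15; ratios had 0.5 added to each count. The fits and tests were tested on simulated data. At this depth 3 counts are 0.154 to 0.22 CPM; reads carry no molecular identifiers, so this covers counting error only, and the biological coefficient of variation was 0.3846. All library pairs within a timepoint differed by more than sampling noise, with a chi-square of 5.14 or more for each degree of freedom.

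The members, gene lists and tests were chosen with earlier results of these data known. Named were the 10 members, called genes of the 5 chromatin lists (the 2 largest rises and falls with values), Ezh1, Uhrf2 and Pcna, and the 2 most alike genes of each member. Alternatives were DESeq2, its size factors, other filters, annotated genes alone, the compared timepoints alone, a replicate block, each library left out and, for ratios, another pseudocount. Same-numbered organoids of different timepoints are different organoids. A called gene of the lists is not reported here by name.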

Additional observations from a re-analysis of the deposited data

Results flagged for a closer look

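In 2 of the 40 groups of 6 organoids tested (10 genes at 4 timepoints), 1 organoid stood far from the others, with a gap to its neighbour that was a large part of the range of the group; chance gives this in about 1 in 20 groups. Dnmt3b at D20 was lowest in replicate 5, at 5.69 CPM, where the next organoid had 8.39 CPM (gap over range 0.638). Tet3 at D25 was highest in replicate 5, at 249.0 CPM, with the next organoid at 213.4 CPM (gap over range 0.663). Without either organoid, the D20 to D30 calls of Dnmt3b and Tet3 were as before.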

How the results depend on the processing

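The calls that Ezh2, Dnmt3b, Suz12 and Uhrf1 fell from D20 to D30, and that Tet3 rose, held in every alternative fit and without each single organoid; Dnmt3a is the exception given above. With annotated genes only, which changes both the scaling and the features tested (16284), the median change of annotated genes from D20 to D30 moved from 0.10 to 0.01, and 2 genes were called from D20 to D22 (Uhrf1 and Tet3) in place of 1; from D20 to D30 Tet1 and Tet2 were added and Dnmt3a lost. With no filter, 1 gene was called from D22 to D25 in place of 2. The genes removing Polycomb marks numbered 1 called in place of 3 with no filter, with filterByExpr and with the compared timepoints only. Tet3 from D22 to D25 passed with DESeq2 (adjusted p = 0.00225), with its size factors in edgeR (0.00574), with filterByExpr (0.00612), and without D22 replicate 2 or 3 or D30 replicate 1 or 6 (0.00266 to 0.00898).

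Without 1 organoid at a time, 0 to 1 genes were called from D20 to D22, 1 to 3 from D22 to D25, 1 from D25 to D30, 5 to 7 from D20 to D30 and 7 jointly; of the lists, 6 to 8 methylation partners, 9 demethylation genes, 2 to 3 PRC2 partners, 6 to 7 PRC1 subunits, 1 to 4 genes removing Polycomb marks and 15 to 16 replication genes; and 22 to 25 of the 40 ratios passed.

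Replicate numbers do not pair the organoids. Deviations of same-numbered organoids had a mean correlation of 0.0135 (-0.0907 to 0.257, 36 pairs), beside -0.00273 (-0.336 to 0.233, 180 pairs) for other numbers. Of the 24 organoids, 7 correlated best with their own number. With the replicate block, 7 genes were called from D20 to D30 (Tet1 added, log2 change -0.34, adjusted p = 0.00574) and 8 jointly. With ratios paired by number (sign flip over 6 pairs, smallest adjusted p 0.0595), 0 of 40 passed. Sequencing depth limits Dnmt3b most, with 26 to 155 counts, and organoids of 1 experiment give no measure of the spread between experiments.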
